A study of Mus musculus with 18 samples.

Results

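A set of 10 genes of the integrated stress response, Atf4, Ddit3, Trib3, Asns, Chac1, Sesn2, Atf5, Ppp1r15a, Slc3a2 and Slc7a11, was followed by symbol through a table of read counts with 15596 gene symbols, and all 10 were found. They are listed by name as genes of the axis of the transcription factors ATF4 and CHOP, and the list was made with earlier results of these data known. The table holds 16 RNA sequencing libraries of MC38, a transplantable colon carcinoma line of C57BL/6 mice. The groups were cultured MC38 cells with the genotype label Mbtps1 WT (3 libraries) or Mbtps1 KD (3 libraries), and MC38 tumours labelled Mbtps1 WT (5 libraries) or Mbtps1 KD (5 libraries), the tumours having grown in wild-type C57BL/6 mice. The study asked what loss of Mbtps1, the gene of site-1 protease, does to tumour cells and to the tumours they form. The depletion is named KD in every sample label, while the series text speaks of knockout for the cultured cells and knockdown for the implanted ones. The sources used here do not give how it was made, whether it rests on 1 clone, the age of the mice, or whether replicates were separate cultures and animals. The p-values thus refer to the spread among the sequenced libraries, part or all of which may be technical.

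In the integrated stress response, kinases that sense unfolded protein in the endoplasmic reticulum, missing amino acids, viral RNA or missing haem phosphorylate the translation factor eIF2alpha. Most translation then slows, while upstream reading frames let the mRNAs of Atf4, Atf5, Ddit3 and Ppp1r15a be translated better, so that much of the control of these factors lies in translation and is not seen in mRNA counts. ATF4 binds C/EBP-ATF response elements and raises genes of amino acid uptake and synthesis, its partner CHOP raises genes that restore translation or favour cell death, and Ppp1r15a closes the loop by removing the phosphate. Site-1 protease acts on another branch of the unfolded protein response, cutting the sensor ATF6 so that its active part is released.

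Library totals ran from 14240353 to 15155599 counts in WT cells, from 14931689 to 15515405 in KD cells, from 19630410 to 28316572 in WT tumours and from 22257519 to 32655739 in KD tumours. Mbtps1 mRNA was 127 ± 8.80 CPM (counts per 1000000 of the library, mean ± SD, n = 3) in WT cells and 35.8 ± 1.10 (n = 3) in KD cells, and 121 ± 8.63 (n = 5) in WT tumours and 51.8 ± 6.44 (n = 5) in KD tumours, in the direction of the labels. Of 11 leukocyte markers, 9 were listed at 0 in all cultured cells, Ptprc included, and the summed level of the list was 1.40 to 2.99 CPM over all cell libraries, 414 to 722 in WT tumours and 501 to 760 in KD tumours. Of 9 endothelial and stromal markers, summed levels were 307 to 430 CPM in WT cells, 307 to 332 in KD cells, 523 to 689 in WT tumours and 526 to 596 in KD tumours, with Kdr, Lum and Acta2 listed at 0 in all cell libraries. Epithelial markers of a carcinoma were near absent: of 6 listed, 3 were in the table, Epcam and Cdh1 were listed at 0 in all cell libraries and Krt8 at 0 in all tumours, and the sum never passed 7.07 CPM. The tumour libraries therefore hold RNA of host cells beside that of MC38 cells. In them fewer cells of a type and less RNA per cell cannot be told apart. The lowest sum above 0 of any gene was 13 counts over the cell libraries and 15 over the tumours. A listed 0 may thus stand for a low count.

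All 10 genes are protein coding. Positions here are those of GENCODE M21 on GRCm38, a mouse build that may differ from the one the authors aligned to. Among the factors and regulators, Atf4 lies at chr15:80255184-80257541 on the plus strand, Ddit3 at chr10:127290774-127296288 on the plus strand, Atf5 at chr7:44812256-44816658 on the minus strand, Trib3 at chr2:152337422-152344032 on the minus strand and Ppp1r15a at chr7:45522916-45526268 on the minus strand. Among the metabolic outputs, Asns lies at chr6:7675169-7693254 on the minus strand, Chac1 at chr2:119351229-119354381 on the plus strand, Sesn2 at chr4:132492032-132510501 on the minus strand, Slc3a2 at chr19:8706882-8723369 on the minus strand and Slc7a11 at chr3:49892526-50443614 on the minus strand. Strand use in counting is not given, and 3 of the 10 share exonic bases with a gene on the other strand. Atf5 shares 82 bases, 4.11% of its exons, with Nup62 and Il4i1. Ddit3 shares 68 bases, 3.97% of its exons, with Mars1, and Ppp1r15a shares 12 bases with Tulp2, which the table does not list under that symbol. If strand was not used, reads in those bases cannot be assigned to either gene. Values of Nup62, Il4i1 and Mars1 are therefore given beside results of Atf5 and Ddit3.

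The element through which ATF4 acts was looked for in the promoters, as a property of these genes that does not come from the counts. RefSeq promoter windows of GRCm38.p6, running from 250 bases before to 50 bases after a transcription start, were found for all 10 genes (11 windows, 2 of them for Atf5). The C/EBP-ATF response element was searched as TGATGNAA and, for the other strand, TTNCATCA. It was present in 4 of the 10 genes, Trib3, Asns, Chac1 and Slc7a11, and in 3.97% of all 32851 windows. The 30 bases around the match are shown for 3 of these genes, each read in the direction of its gene, with the match in capitals.
Trib3: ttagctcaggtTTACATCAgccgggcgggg
Asns: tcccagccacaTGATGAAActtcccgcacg
Chac1: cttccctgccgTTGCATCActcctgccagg
These are chr2:152344028-152344057 (minus strand) for Trib3, chr6:7693214-7693243 (minus strand) for Asns and chr2:119351038-119351067 (plus strand) for Chac1. The match starts 15 bases after the RefSeq start in Trib3, 23 bases before it in Asns and 193 bases before it in Chac1. The promoter of Slc7a11 is shown over its whole 250 upstream bases, chr3:50443614-50443863 (minus strand), because it holds a pair of matches in opposite orientation, at 66 and 47 bases before the start.
Slc7a11: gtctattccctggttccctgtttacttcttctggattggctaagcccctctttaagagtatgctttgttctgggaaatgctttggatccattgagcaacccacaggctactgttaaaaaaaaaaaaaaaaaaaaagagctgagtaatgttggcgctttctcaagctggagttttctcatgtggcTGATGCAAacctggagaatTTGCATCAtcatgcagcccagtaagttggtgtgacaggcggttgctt
The endoplasmic reticulum stress element of ATF6, searched as CCAATN9CCACG on both strands, was in 0 of the 10 genes and in 0.119% of all windows. The core of the antioxidant response element, TGACNNNGC on both strands, was in 3 genes (Asns, Sesn2 and Ppp1r15a) and in 12.4% of all windows. The CCAAT box, also on both strands, was in 6 genes and in 37.4% of all windows. A match is a string of letters, and its absence says only that those letters are not in this window.

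**Figure D1:**
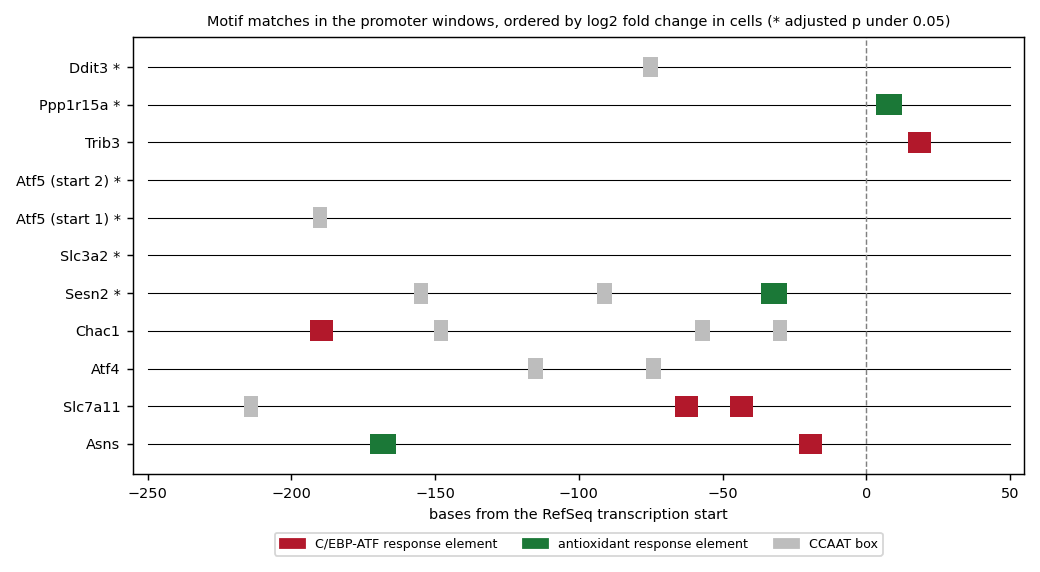
Motif matches in the 11 RefSeq promoter windows of the 10 genes, by position in bases from the transcription start, with genes from top to bottom in falling order of their log2 fold change in cultured KD cells and an asterisk where the adjusted p was under 0.05. Atf5 has 2 annotated starts. The windows of Trib3, Asns, Chac1 and Slc7a11 hold the C/EBP-ATF response element (red), and none of these 4 genes carries an asterisk. Trib3 nevertheless stands above Atf5, Slc3a2 and Sesn2, which carry one.

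Per kilobase of exon, Atf4 was the most abundant of the 10 mRNAs in every group and Slc7a11, the cystine importer, the least abundant. The place of Slc7a11 depends on the length used, the union of its annotated exons, which is 13922 bases. By CPM in WT cells Slc7a11 (43.5) was above Sesn2 (39.0), Ddit3 (38.7), Ppp1r15a (33.6) and Chac1 (23.0) and below the rest. The level of Atf4 was 170 ± 22.1 CPM per kilobase in WT cells (n = 3), 198 ± 18.4 in KD cells (n = 3), 227 ± 13.4 in WT tumours (n = 5) and 277 ± 34.5 in KD tumours (n = 5). Slc7a11 was at 3.12 ± 0.125, 3.47 ± 0.604, 1.23 ± 0.231 and 0.865 ± 0.151 in the same order. In cells the order below Atf4 was Asns, the asparagine synthetase, then the transporter chain Slc3a2, then the transcription factor Atf5. In tumours Atf5 stood second, at 197 ± 21.6 CPM per kilobase in WT tumours, with Asns behind Slc3a2 at 69.1 ± 4.18. The lowest places above Slc7a11 were held in all groups by Ppp1r15a, Sesn2 and Chac1. In WT cells Ppp1r15a and Sesn2, at 11.4 ± 1.65 and 11.2 ± 2.05 CPM per kilobase, differed by less than the SD of either, and Chac1 at 14.1 ± 4.41 differed from them by less than its own SD but by more than theirs.

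**Figure D2:**
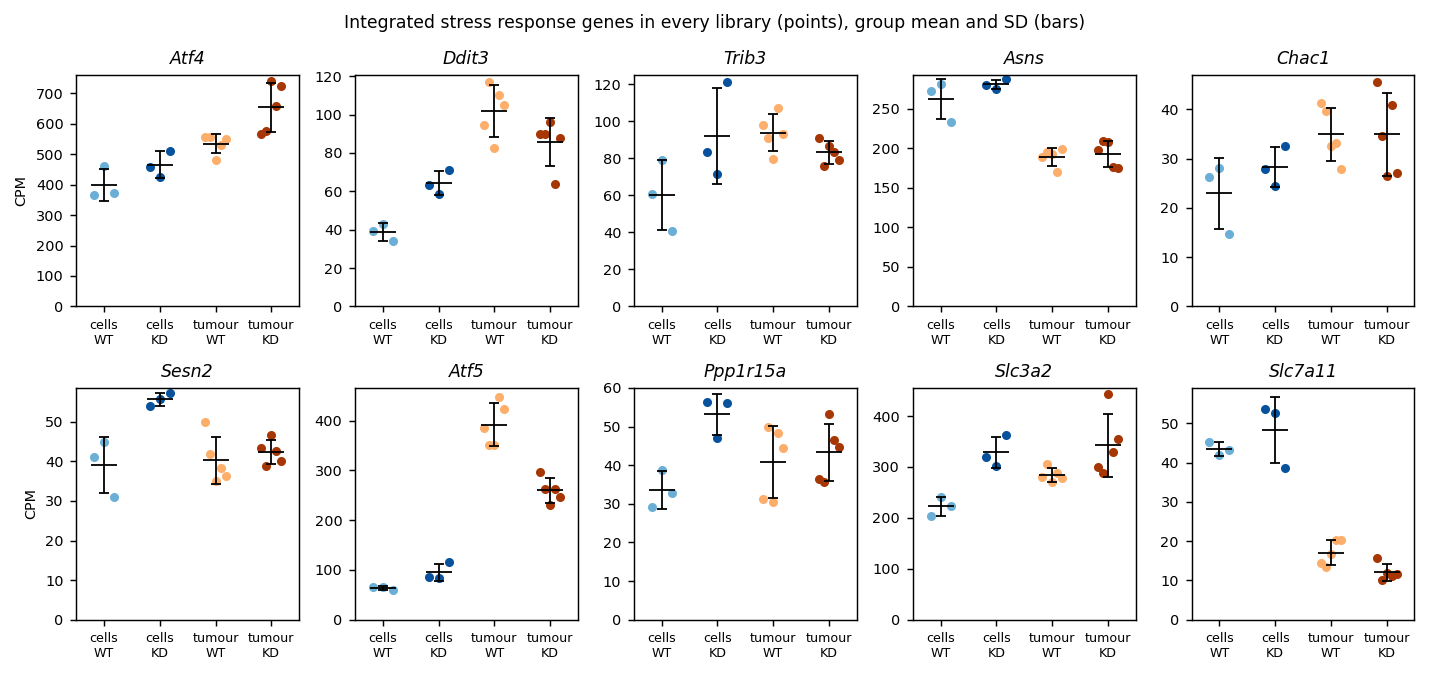
CPM of each gene in every library (points), with the group mean (horizontal bar) and SD (whiskers), for WT and KD cells (n = 3 each) and WT and KD tumours (n = 5 each), each panel on its own linear scale from 0. Ddit3 in KD cells lies between 58.6 and 71.1 CPM, above all WT cells, and Atf5 in KD tumours lies between 230 and 297 CPM, below all WT tumours.

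In cultured cells, 5 of the 10 genes were higher in KD than in WT and 0 were lower (0 also at an unadjusted p under 0.05 and with DESeq2, which called the same number as higher). The 5 were the factors Ddit3 and Atf5, the eIF2alpha phosphatase subunit Ppp1r15a, the transporter chain Slc3a2 and the stress sensor Sesn2, and in all 5 the KD libraries lay above all WT libraries. Over all 11905 genes tested, 9.33% passed, 3.76% as higher and 5.57% as lower, and the groups did not overlap in 31.8% of genes, with 16% higher in KD. The median log2 fold change of the 10 genes was 0.527, against 0.01 over all genes tested. The test was edgeR's quasi-likelihood test, two-sided, with Benjamini-Hochberg adjustment over all genes tested and a threshold of 0.05.

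Ddit3 encodes CHOP, the factor that joins this response to cell death. It was at 39.2, 43.1 and 33.9 CPM in WT cells and at 63.4, 58.6 and 71.1 CPM in KD cells. All KD libraries were above all WT libraries, and the log2 fold change was 0.72 (SE 0.11, edgeR adjusted p = 0.0033). Mars1, the methionyl-tRNA synthetase gene that overlaps it, had a log2 fold change of 0.13 (SE 0.09, edgeR adjusted p = 0.36).

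Ppp1r15a encodes GADD34, which brings protein phosphatase to eIF2alpha. It was at 29.1, 38.7 and 32.8 CPM in WT cells and at 56.5, 47.0 and 56.1 CPM in KD cells. The groups did not overlap, and the log2 fold change was 0.65 (SE 0.12, edgeR adjusted p = 0.0087). Atf5, a relative of ATF4 linked to the mitochondrial stress response, was at 65.5, 65.6 and 58.9 CPM in WT cells and at 86.1, 84.6 and 115 CPM in KD cells. The KD libraries were higher throughout, with replicate 3 standing above the other KD libraries, and the log2 fold change was 0.58 (SE 0.12, edgeR adjusted p = 0.015). Nup62, which shares exonic bases with Atf5, went from 160 ± 5.09 to 196 ± 18.2 CPM (log2 fold change 0.28, edgeR adjusted p = 0.081). Il4i1, which shares the same bases, was at 0.504 ± 0.492 and 0.681 ± 0.138 CPM.

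Slc3a2 encodes the heavy chain CD98, which carries several amino acid transporters to the cell surface. It was at 204, 241 and 223 CPM in WT cells and at 320, 303 and 363 CPM in KD cells. The lowest KD library lay above the highest WT library, and the log2 fold change was 0.55 (SE 0.10, edgeR adjusted p = 0.0070). Sesn2, a sestrin that holds back the growth kinase complex mTORC1, was at 41.1, 44.9 and 31.1 CPM in WT cells and at 53.9, 55.8 and 57.2 CPM in KD cells. The groups did not overlap, WT replicate 3 was lowest, and the log2 fold change was 0.50 (SE 0.13, edgeR adjusted p = 0.031).

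The other 5 genes did not pass in cells. Atf4 itself was at 366, 460 and 374 CPM in WT cells and at 459, 426 and 512 CPM in KD cells. The groups overlapped, and the log2 fold change was 0.21 (95% interval -0.03 to 0.45, edgeR adjusted p = 0.24), so that a rise as large as that of Ddit3 lay outside the interval. Trib3, a pseudokinase that restrains AKT and ATF4, was at 60.5, 79.0 and 40.9 CPM in WT cells and at 83.6, 71.5 and 121 CPM in KD cells. Its log2 fold change of 0.61 (SE 0.22, edgeR adjusted p = 0.11) did not pass, and its libraries overlapped. The value was 0.36 without KD replicate 3 (edgeR adjusted p = 0.46) and 0.40 without WT replicate 3 (edgeR adjusted p = 0.28).

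Chac1, an enzyme that breaks down glutathione, had a log2 fold change of 0.29 (95% interval -0.15 to 0.73, edgeR adjusted p = 0.38). Slc7a11, the light chain that pairs with Slc3a2 to import cystine, had one of 0.14 (95% interval -0.14 to 0.43, edgeR adjusted p = 0.52). Asns had one of 0.09 (95% interval -0.11 to 0.30, edgeR adjusted p = 0.57). These 3 genes and Trib3 are the 4 with a C/EBP-ATF response element in the promoter window. The windows of the 5 genes that passed hold 0 matches. This split is one of calls at the threshold. The log2 fold change of Trib3, 0.61, was above those of Atf5 (0.58), Slc3a2 (0.55) and Sesn2 (0.50), which passed. A relation of the element to the change was not tested.

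The number of calls in cells changed when single libraries were left out. Without WT replicate 1, 1 of the 10 genes passed, Ddit3 (log2 fold change 0.73, edgeR adjusted p = 0.023), with 290 genes called in all in place of 1111. Slc3a2 (0.060), Ppp1r15a (0.060), Atf5 (0.066) and Sesn2 (0.10) then missed the threshold on their edgeR adjusted p. Their log2 fold changes in that fit were 0.49, 0.56, 0.61 and 0.54 in the same order. Atf5 also missed it without WT replicate 2 (0.054) or 3 (0.061), Sesn2 without WT replicate 3 (0.062) or KD replicate 1 (0.085), and Ppp1r15a without KD replicate 1 (0.053), in the same edgeR test. Over all fits that left out 1 cell library, log2 fold changes ran from 0.48 to 0.61 for Slc3a2 and from 0.56 to 0.76 for Ppp1r15a. For Atf5 they ran from 0.43 to 0.66 and for Sesn2 from 0.37 to 0.61.

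**Figure D3:**
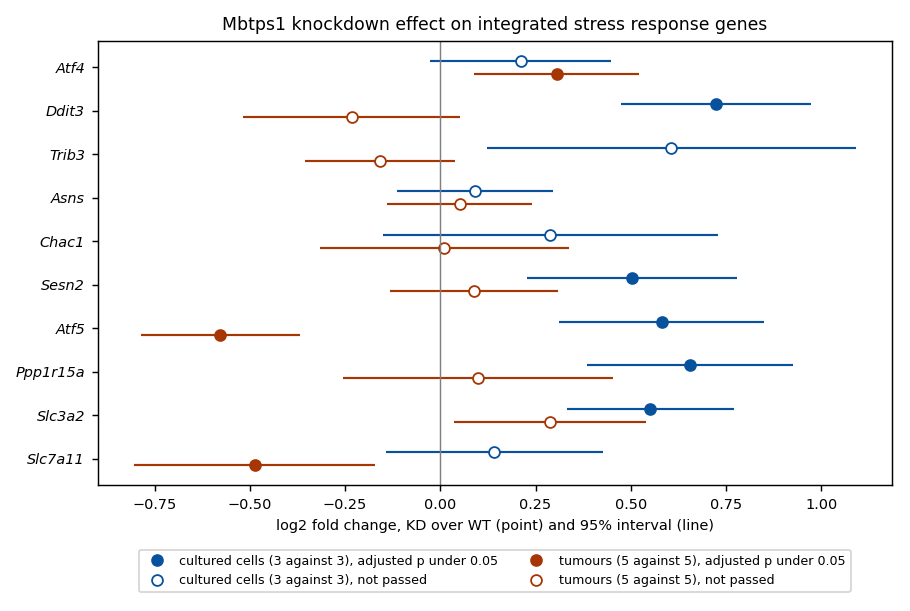
Log2 fold change of KD over WT (points) with its 95% interval (lines) for each gene in cultured cells (blue, 3 against 3 libraries) and in tumours (brown, 5 against 5), filled where the adjusted p was under 0.05. In cells all 10 points lie right of 0 and 5 are filled, and in tumours Atf4 is filled to the right and Atf5 and Slc7a11 to the left.

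In tumours, 1 of the 10 genes was higher in KD and 2 were lower: Atf4 rose, and Atf5 and Slc7a11 fell. Over all 13997 genes tested, 38.4% passed, 20.1% as higher and 18.3% as lower, so the 3 called of 10 are near the share of all genes. The groups did not overlap for Atf4 and Atf5, against 22.6% of all genes. The median log2 fold change of the 10 genes was 0.03, against 0.016 over all genes tested.

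Atf5 was at 386, 351, 351, 447 and 424 CPM in WT tumours and at 297, 263, 230, 263 and 246 CPM in KD tumours. All KD tumours were below all WT tumours, and the log2 fold change was -0.58 (SE 0.10, edgeR adjusted p = 8.6e-04), opposite in sign to that in cells. Nup62 was lower as well, at 131 ± 18.7 CPM in WT and 91.4 ± 29.6 in KD tumours (log2 fold change -0.51, SE 0.18, edgeR adjusted p = 0.040). Il4i1 was at 2.91 ± 0.720 and 2.03 ± 0.584 CPM (log2 fold change -0.50, edgeR adjusted p = 0.11). The part of the shared exonic bases in the change of Atf5 was not tested.

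Atf4 was at 556, 558, 482, 529 and 550 CPM in WT tumours and at 568, 576, 743, 658 and 726 CPM in KD tumours. The groups did not overlap, although KD replicates 1 and 2 lay close to the WT range, and the log2 fold change was 0.31 (SE 0.10, edgeR adjusted p = 0.030). The call was lost in 5 of the 10 fits that left out a tumour: without WT replicate 3, 4 or 5 or KD replicate 3 or 5. The log2 fold change was then 0.24 to 0.31, with edgeR adjusted p of 0.087, 0.062, 0.055, 0.071 and 0.074 in that order.

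Slc7a11 was at 14.4, 13.4, 16.8, 20.3 and 20.3 CPM in WT tumours and at 15.6, 10.02, 11.9, 11.1 and 11.6 CPM in KD tumours. The groups overlapped through KD replicate 1, and the log2 fold change was -0.49 (SE 0.15, edgeR adjusted p = 0.020). Without WT replicate 4 or 5 it was -0.41 or -0.42 (edgeR adjusted p = 0.059 or 0.058). Its partner Slc3a2 was at 279, 305, 270, 288 and 278 CPM in WT tumours and at 299, 288, 443, 329 and 355 CPM in KD tumours. KD replicate 3 stood highest, the groups overlapped, and the log2 fold change of 0.29 (SE 0.12, edgeR adjusted p = 0.067) did not pass, although it did without KD replicate 1 (edgeR adjusted p = 0.040) or 2 (0.048).

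Ddit3 was at 94.6, 117, 82.5, 110 and 105 CPM in WT tumours and at 90.0, 89.9, 96.2, 63.8 and 87.6 CPM in KD tumours. The ranges overlapped, KD replicate 4 was the lowest of all tumours, and the log2 fold change was -0.23 (95% interval -0.52 to 0.05, edgeR adjusted p = 0.18), or -0.14 without KD replicate 4 (edgeR adjusted p = 0.32). Mars1 had a log2 fold change of 0.0038 there (SE 0.08, edgeR adjusted p = 0.97). Trib3 had one of -0.16 (95% interval -0.35 to 0.04, edgeR adjusted p = 0.18). The intervals of both genes left out the size of change each had in cells. Ppp1r15a (0.10, 95% interval -0.26 to 0.45), Sesn2 (0.09, 95% interval -0.13 to 0.31), Asns (0.05, 95% interval -0.14 to 0.24) and Chac1 (0.01, 95% interval -0.32 to 0.34) had log2 fold changes near 0 that did not pass.

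Markers of other cell types differed between the same groups. Of 10 leukocyte markers tested, 6 were higher in KD tumours and 0 lower, beside 20.1% and 18.3% of all genes. The pan-leukocyte gene Ptprc went from 49.4 ± 9.59 to 102 ± 20.8 CPM, while the macrophage genes Csf1r (219 and 181 CPM) and Adgre1 (66.5 and 67.7 CPM) did not pass, and the summed level of the list overlapped between WT and KD tumours. Of 9 endothelial and stromal markers, 0 were higher and 4 lower, among them Pdgfrb, from 53.6 ± 11.4 to 23.3 ± 2.56 CPM, and Pdgfra (-0.55). Dcn (257 and 289 CPM) and Rgs5 (28.2 and 34.3 CPM) did not pass. Pdgfra and Dcn were also at 209 and 168 CPM in cultured WT cells, so they do not mark host cells alone. Pdgfra was lower in KD cells as well (-0.39, edgeR adjusted p = 0.032). The part of these leukocyte and stromal markers in the changes of Atf4, Atf5 and Slc7a11 was not tested.

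The effect of the knockdown was then compared between tumours and cells in 1 fit over 16 libraries. The difference, tumours minus cells on the log2 scale, passed for 3 of the 10 genes, each with the lower effect in tumours: Atf5, Ddit3 and Trib3. Over all 12581 genes tested 22.7% passed, 12.7% with a higher effect in tumours and 9.95% with a lower one. The median difference was -0.465 over the 10 genes and -0.006 over all genes tested, and 9 of the 10 were negative. The difference uses the libraries of the comparisons above and is therefore not independent of them. Mbtps1 itself was lowered less in tumours, with log2 fold changes of -1.84 in cells and -1.21 in tumours. Its difference was 0.65 (SE 0.14, edgeR adjusted p = 0.0033), and the part of this in the differences of the 10 genes was not tested.

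For Atf5 the difference was -1.14 (SE 0.16, edgeR adjusted p = 2.1e-04), with a rise in cells and a fall in tumours. For Ddit3 it was -0.93 (SE 0.20, edgeR adjusted p = 0.0033), with a rise in cells and a value in tumours that did not pass. For Trib3 it was -0.74 (SE 0.23, edgeR adjusted p = 0.028), although neither effect passed by itself. The calls of Atf5 and Ddit3 were kept in all 16 fits that left out 1 library, and that of Trib3 in 12. Trib3 did not pass without WT cells replicate 1 (edgeR adjusted p = 0.058) or 3 (0.091), KD cells replicate 3 (0.13) or WT tumours replicate 4 (0.053).

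Slc7a11 fell just outside the threshold, at -0.61 (SE 0.22, edgeR adjusted p = 0.051). It passed without KD cells replicate 3 (edgeR adjusted p = 0.028), WT tumours replicate 1 (0.042) or 2 (0.028) or KD tumours replicate 1 (0.016). Ppp1r15a (-0.53, 95% interval -1.03 to -0.03, edgeR adjusted p = 0.11) and Sesn2 (-0.40, 95% interval -0.76 to -0.04, edgeR adjusted p = 0.10) had differences that did not pass over all genes. Chac1 (-0.26), Slc3a2 (-0.24), Asns (-0.02) and Atf4 (0.12) did not pass either, with edgeR adjusted p from 0.32 to 0.93. Nup62 had a difference of -0.78 (SE 0.26, edgeR adjusted p = 0.038), in the direction of Atf5, Il4i1 one of -0.90 (SE 0.68, edgeR adjusted p = 0.36) and Mars1 one of -0.11 (SE 0.12, edgeR adjusted p = 0.54). The part of the leukocyte and stromal markers that passed between WT and KD tumours in these differences was not tested.

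Between implanted tumours and culture, with WT libraries only, 6 of the 10 genes were higher in tumours and 2 were lower. This comparison uses the control libraries of the comparisons above and is therefore not independent of them. It called 79.1% of the 12407 genes tested, 40.7% as higher and 38.4% as lower, and 75.7% had groups that did not overlap (35% higher and 40.7% lower in tumours), so that the 8 genes called of 10 (7 of them without overlap) are near the share of all genes. Atf5 rose from 63.3 ± 3.82 to 392 ± 43.0 CPM, a log2 fold change of 2.74 (SE 0.11, edgeR adjusted p = 6.5e-12) and the largest of the 10. Nup62 had one of -0.18 (edgeR adjusted p = 0.14) and Il4i1 one of 2.62 (SE 0.50, edgeR adjusted p = 2.4e-04) at levels under 3 CPM.

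Ddit3 rose from 38.7 ± 4.60 to 102 ± 13.5 CPM (log2 fold change 1.50, SE 0.12, edgeR adjusted p = 1.5e-08), with Mars1 at -0.09 (edgeR adjusted p = 0.23). Trib3 (0.76), Chac1 (0.71), Atf4 (0.53) and Slc3a2 (0.46) rose by less, with edgeR adjusted p of 0.0049 or lower. Slc7a11 fell from 43.5 ± 1.73 to 17.1 ± 3.21 CPM (log2 fold change -1.24, SE 0.13, edgeR adjusted p = 2.9e-07). Asns fell from 262 ± 25.3 to 189 ± 11.4 CPM (log2 fold change -0.36, SE 0.08, edgeR adjusted p = 6.5e-04). Sesn2 (0.16, edgeR adjusted p = 0.29) and Ppp1r15a (0.39, edgeR adjusted p = 0.067) did not pass, the latter passing without WT tumours replicate 1 (edgeR adjusted p = 0.017) or 3 (0.012). The summed leukocyte markers were above 414 CPM in each WT tumour and under 2.38 CPM in each WT cell library, and their part in these differences was not tested.

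Set in the order of their mean CPM, the groups fell into 3 patterns. Atf4, Ddit3, Chac1 and Atf5 had both tumour groups above both cell groups, with the highest mean 1.64, 2.63, 1.52 and 6.19 times the lowest. Asns and Slc7a11 had both cell groups above both tumour groups, with ratios of 1.49 and 4.01. Trib3, Sesn2, Ppp1r15a and Slc3a2 had WT cells lowest and KD cells among the tumours or above them, with ratios of 1.56, 1.43, 1.59 and 1.54. For Sesn2, both tumour groups and WT cells had overlapping ranges, at 40.2 ± 5.94, 42.3 ± 3.01 and 39.0 ± 7.11 CPM, and KD cells stood apart at 55.6 ± 1.63. For Chac1, WT and KD tumours had means of 34.9 ± 5.46 and 34.9 ± 8.43 CPM, which differed by less than either SD. KD cells had a mean of 28.3 CPM and WT cells one of 23.0 CPM, and each of these groups overlapped in range with the group above it in the order.

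Other genes of the pathway were counted in lists by role. In cells, 0 of 16 genes for the eIF2alpha kinases, phosphatases, eIF2 and its exchange factor eIF2B passed, and 0 of 15 genes of the ATF6, IRE1 and chaperone arms passed (median log2 fold change -0.05 and -0.07). At an unadjusted p under 0.05 edgeR gave 0 of the first list and 1 of the second, which was lower, and DESeq2 called 0 of either. Of 11 amino acid transporters tested, 0 passed in edgeR or DESeq2, and 1 was higher at an unadjusted p under 0.05. The medians stand beside 0.01 over all genes. In simulated data the test in cells recovered 38% of log2 changes of 0.5. A count of 0 therefore does not show that no gene of a list changed by that size.

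The transcription factor partners gave 1 of 12 in KD cells, Cebpb, which binds DNA with ATF4 and CHOP, from 33.9 ± 6.22 to 59.5 ± 20.2 CPM (log2 fold change 0.80, edgeR adjusted p = 0.031). Amino acid synthesis gave 2 of 13, both higher: Phgdh, the first enzyme of serine synthesis, from 950.3 ± 16.6 to 1341 ± 216 CPM (0.49, edgeR adjusted p = 0.021), and the glutamine synthetase Glul (0.56, edgeR adjusted p = 0.0051). Of 12 tRNA synthetases of the ATF4 programme, 2 were higher and 0 lower, Aars for alanine (0.46, edgeR adjusted p = 0.013) and Yars for tyrosine (0.34, edgeR adjusted p = 0.046). Of 8 other synthetases 1 was lower, Kars for lysine, from 234 ± 29.1 to 110 ± 1.45 CPM (-1.10, edgeR adjusted p = 1.7e-04).

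The autophagy receptor gene Sqstm1 was higher (0.47, edgeR adjusted p = 0.020) and the lipoprotein receptor gene Vldlr lower (-0.56, edgeR adjusted p = 0.019) among 14 growth, autophagy and secreted outputs in KD cells. Of 8 CHOP and apoptosis outputs, Car6 was higher (0.82, edgeR adjusted p = 0.014) and the oxidase Ero1a, a CHOP target, was lower, from 434 ± 131 to 242 ± 27.3 CPM (-0.85, edgeR adjusted p = 0.017). Of 11 NRF2 and glutathione genes 1 was higher, the quinone reductase Nqo1, from 6.47 ± 0.992 to 14.2 ± 1.03 CPM (1.12, edgeR adjusted p = 0.0025). The largest share called in these lists was thus 2 of 8, beside 9.33% of all genes.

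**Figure D4:**
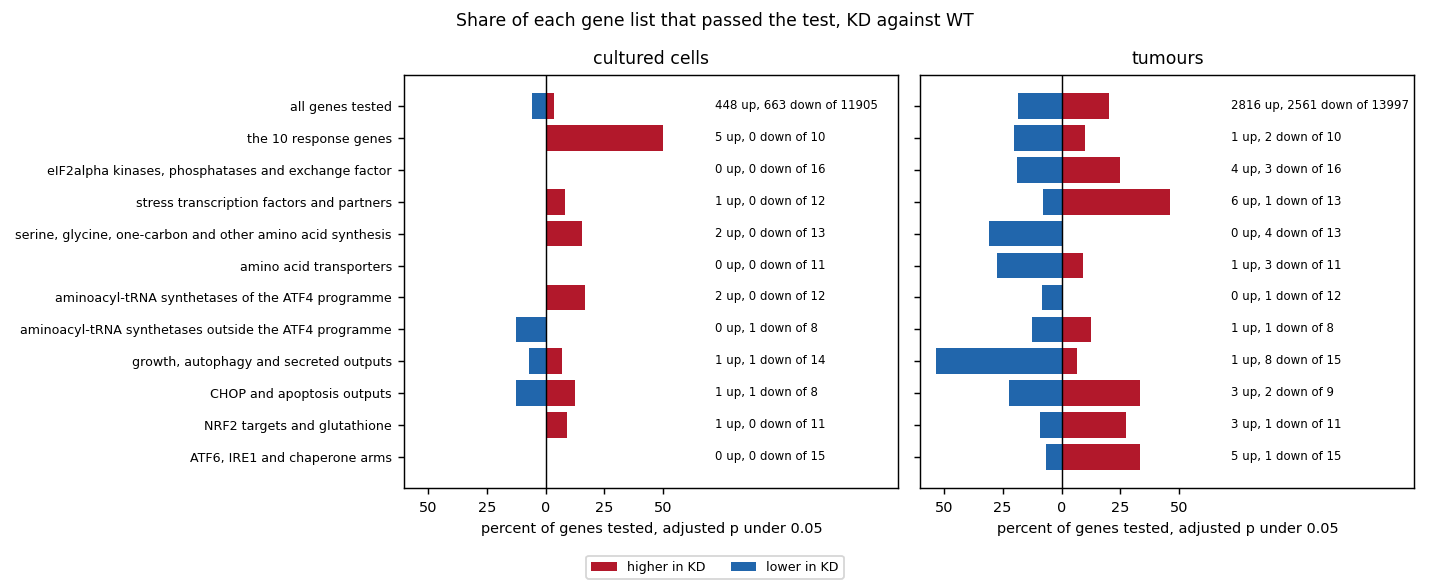
Percent of the tested genes of each list that passed at an adjusted p under 0.05 in KD against WT, to the right when higher (red) and to the left when lower (blue), for cultured cells and tumours, with the counts printed at the right. In cells the 10 response genes have 5 higher and 0 lower while 3 lists have none, and in tumours the growth, autophagy and secreted outputs have 8 of 15 lower.

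In tumours the lists stood beside a background of 38.4%. Of 15 growth, autophagy and secreted outputs, 1 was higher and 8 were lower. These included Ddit4, which holds back mTORC1, from 63.7 ± 9.09 to 35.4 ± 4.49 CPM (log2 fold change -0.84, edgeR adjusted p = 2.4e-04), the autophagosome gene Map1lc3b (-0.63, edgeR adjusted p = 1.8e-04) and Sesn1 (-0.52, edgeR adjusted p = 0.0086). The hormone gene Stc2 was the 1 higher (0.44, edgeR adjusted p = 0.011).

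Of 13 amino acid synthesis genes 0 were higher and 4 lower, among them Pycr1 for proline (-0.59, edgeR adjusted p = 5.3e-04), the folate enzyme Aldh1l2 (-0.59, edgeR adjusted p = 0.0015) and the alanine transaminase Gpt2 (-0.35, edgeR adjusted p = 0.0018). Of 11 transporters 3 were lower, Slc7a5, Slc36a1 and Slc6a9 (-0.46, -0.41 and -0.35, with edgeR adjusted p of 0.015, 0.0046 and 0.017), and Slc38a2 was higher (0.45, edgeR adjusted p = 0.0050). Slc7a5 is another light chain that pairs with Slc3a2, and its level was 258 ± 46.0 CPM in WT and 186 ± 30.1 in KD tumours. Of 12 tRNA synthetases of the ATF4 programme 1 was lower, Sars for serine (-0.27, edgeR adjusted p = 0.026).

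Of 13 transcription factor partners in tumours, 6 were higher and 1 lower, with Cebpg (0.43), Creb1 (0.40) and Fos (0.68) among the higher and Nfe2l1 (-0.33) lower, at edgeR adjusted p of 0.016 or lower. Upstream, 4 of 16 were higher and 3 lower. Ppp1r15b, the constitutive partner of the eIF2alpha phosphatase, was higher (0.44, edgeR adjusted p = 0.0017), as were the eIF2 subunits Eif2s1 (0.40, edgeR adjusted p = 0.0052) and Eif2s2 (0.34, edgeR adjusted p = 0.0070). Eif2ak3, the gene of the kinase PERK, was lower, from 27.9 ± 2.35 to 20.4 ± 2.37 CPM (-0.44, edgeR adjusted p = 0.0034), as were the exchange factor subunits Eif2b2 (-0.71, edgeR adjusted p = 0.0022) and Eif2b4 (-0.41, edgeR adjusted p = 0.015).

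Chaperone genes of the other arms gave 5 higher and 1 lower of 15. Hspa5, the chaperone BiP, went from 701 ± 37.3 to 1034 ± 140 CPM (0.58, edgeR adjusted p = 0.0011), with Hsp90b1 (0.58, edgeR adjusted p = 0.0026) and Dnajb9 (0.55, edgeR adjusted p = 0.0028) higher as well, while the sensor Atf6 was lower (-0.31, edgeR adjusted p = 0.019). Of 9 CHOP and apoptosis outputs 3 were higher and 2 lower, with Trib1 (0.54) and the death gene Bcl2l11 (-0.59) as those with the smallest p in each direction (edgeR adjusted p = 0.0012 and 4.8e-04). Of 11 NRF2 and glutathione genes 3 were higher and 1 lower, with Chac2, a relative of Chac1, at 0.80 (edgeR adjusted p = 0.0045) and Txnrd1 at -0.41 (edgeR adjusted p = 0.018). The part of the leukocyte and stromal markers that passed between the same tumours in these lists was not tested.

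The difference of the knockdown effect between tumours and cells was also looked at in the other lists, beside the 22.7% of all genes that passed. It was negative for Phgdh (-0.71, edgeR adjusted p = 0.0049), Glul (-0.74, edgeR adjusted p = 0.013) and Aars (-0.47, edgeR adjusted p = 0.013). It was also negative for Yars (-0.53, edgeR adjusted p = 0.020) and Sqstm1 (-0.72, edgeR adjusted p = 0.0030). All of these genes were called higher in KD cells. The difference uses the same cell libraries, so its sign is not independent of those calls. It was also negative for Sars (-0.47), Aldh1l2 (-0.65), Map1lc3b (-0.70) and Eif4ebp1 (-0.94), which did not pass in cells. Their edgeR adjusted p for the difference ran from 0.0015 to 0.0245. Of 12 tRNA synthetases of the ATF4 programme the difference passed for 3, all negative, and of 13 amino acid synthesis genes for 3, all negative. With both directions counted these shares are near that of all genes, of which 9.95% passed as negative. The difference was positive for Hsp90b1 (0.71, edgeR adjusted p = 0.0067) and Hspa5 (0.46, edgeR adjusted p = 0.031), 2 of the 3 of 15 chaperone arm genes that passed. Other lists went both ways, with 4 positive and 2 negative of 16 upstream genes, 3 and 1 of 12 transcription factor partners, and 2 and 2 of 8 CHOP and apoptosis outputs. The growth, autophagy and secreted outputs had 1 positive and 4 negative of 14, and the NRF2 and glutathione genes 1 and 2 of 11. Of 11 amino acid transporters 1 was positive and 0 negative, as were 1 and 0 of 8 other synthetases.

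Within groups, the 10 genes varied together to unequal degrees from library to library. Correlations were taken over the 16 libraries on log2(CPM + 1) centred within the 4 groups, and are given as a description, since all genes of a library share its depth and preparation. Of 45 pairs, 32 had a Pearson r above 0 and 9 above 0.5, with a median of 0.29 and a range from -0.354 to 0.846 (median Spearman rho 0.221). The closest pair was Atf4 and Slc3a2, with r = 0.846 and rho = 0.903. Trib3 had the highest median r to the other 9 genes, 0.541, and Slc7a11 the lowest, -0.162. Over the 10 tumour libraries alone the median over pairs was 0.081, the median of Trib3 was 0.354 and that of Slc7a11 -0.12, with Chac1 and Asns lower (-0.126 and -0.153), while Atf4 and Slc3a2 kept r = 0.845.

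**Figure D5:**
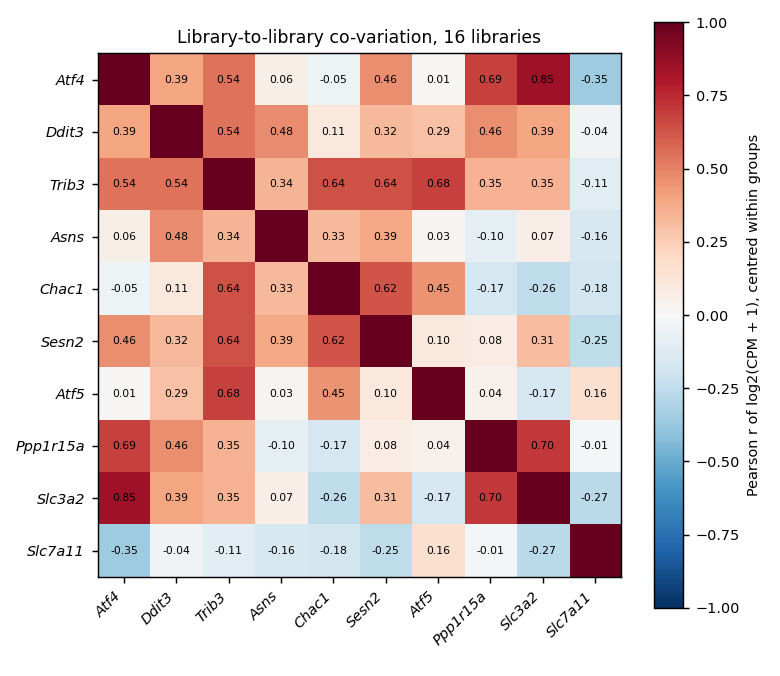
Pearson r between each pair of the 10 genes over 16 libraries, on log2(CPM + 1) centred within the 4 groups (red above 0, blue below 0). The 3 pairs among Atf4, Slc3a2 and Ppp1r15a are the darkest, and the row of Slc7a11 is mostly below 0.

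Single libraries stood high or low for most of the 10 genes at once. Neither these counts nor those of pairs above are set beside the same counts over all genes. They use CPM scaled to library totals, so a shift of most genes in a library would look the same. WT cells replicate 3 was above its group mean for 1 of the 10 genes and WT cells replicate 2 for 9, KD cells replicate 3 for 9, and WT tumours replicate 3 for 1. Among 9318 other genes with at least 5 CPM in every group, the gene most like each in this centred variation was Tpra1 for Atf4 (r = 0.933), Plscr3 for Slc3a2 (r = 0.954) and Mapk3 for Trib3 (r = 0.947). It was Clcf1 for Ppp1r15a (r = 0.921), Rcor2 for Atf5 (r = 0.892), Gtpbp3 for Chac1 (r = 0.885) and AU022252 for Asns (r = 0.864). It was Zscan20 for Sesn2 (r = 0.837), Eno3 for Ddit3 (r = 0.831) and Arap2 for Slc7a11 (r = 0.818). Each is the highest of 9318 values over 16 libraries.

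Another readout exists for 1 of the 10 genes. A pooled CRISPR screen in MC38 cells, read as counts of 18146 guides in 1 library from C57BL/6 mice and 1 from Rag1-knockout mice, which lack mature B and T cells, holds 4 guides for Slc3a2 and 0 for the other 9. Their log2 ratios of CPM, C57BL/6 over Rag1 knockout with a pseudocount of 1, were -0.37, 0.06, 0.09 and 2.63. The guide with the highest ratio had 1698 reads in the C57BL/6 library (62.6 CPM, Wilson 95% interval 59.6 to 65.6). It had 177 in the Rag1-knockout library (9.26 CPM, Wilson 95% interval 7.99 to 10.7). The other 3 had ratios from -0.37 to 0.09 and lay below the median of all guides in both libraries. They were at 12.4 to 23.3 CPM in C57BL/6 and 11.8 to 30.4 CPM in Rag1 knockout, against medians over all guides of 44.6 and 40.7 CPM. The guide at -0.37 had Wilson 95% intervals of 21.5 to 25.2 CPM in C57BL/6 and 28.0 to 33.0 in Rag1 knockout, which do not overlap. The median log2 ratio of the 4 guides was 0.08, against 0.12 for all guides with at least 20 reads, whose quartiles were -0.47 and 0.69. With 1 library per host there is no test, the 4 guides share a target, and the intervals cover counting error only.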

How the data were processed

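RNA was measured in 16 libraries and guide abundance in 2. Per the labels' protocols, Trizol RNA was enriched for mRNA with capture beads before library construction. The gene and guide tables are raw read counts as deposited by the authors. Among the tools in the submitters' processing notes are the aligner STAR (version 2.7.1a) and the counter HTSeq (version 0.13.5), with no settings, and the build named there is the human hg38, although the symbols are those of mouse genes. The build aligned to and the strand setting are not given in the sources used here. Counts were analysed as deposited with edgeR 4.0.16 in R 4.3.3 (TMM factors, its default expression filter, robust quasi-likelihood fit and two-sided test, Benjamini-Hochberg over all genes tested, threshold 0.05), each comparison on its own libraries and the difference of effects on all 16. The SE is the log2 fold change over the root of F, and its 95% interval uses the total degrees of freedom. CPM is scaled to the library total. Per kilobase values use the union of exons in GENCODE M21. All 10 genes passed the filter on low counts in every comparison.

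The fits were tested on simulated data in which 100 genes were changed by a log2 of 1 and another 100 by 0.5. All other genes were left unchanged, whereas 9.33% of genes in cells and 38.4% in tumours were called in the data. The shares recovered in the data may therefore differ from the simulated ones. For KD against WT cells, 96% of log2 changes of 1 and 38% of those of 0.5 were recovered, with 5 false calls. For tumours the shares were 96% and 46%, with 11 false calls. A gene that did not pass may thus still have changed by 0.5. Alternatives were DESeq2 1.42.0, library totals, no filter, a stricter filter, all 16 libraries in 1 fit, the replicate number as a block and leaving out each library. The 10 genes, the lists and the tests were chosen with earlier results of these data known. The rule for named genes took the 10 genes, Mbtps1, up to 3 genes with the smallest p per list and direction, and for each of the 10 the single most correlated other gene. Genes that overlap exons were added after their values were seen. Some of the cell type markers named above fall outside this rule. No test of a list was made.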

Additional observations from a re-analysis of the deposited data

Results flagged for a closer look

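Ddit3 in KD tumours had 1 library far from the others: replicate 4 was at 63.83 CPM, while the other 4 lay between 87.6 and 96.2, so that the gap was 0.736 of the whole range. A total of 20 groups of 5 tumours were examined, and chance gives such a gap in about 1 in 20. The effect of the knockdown differed between tumours and cells by the test of the difference for Atf5 (-1.1373), Ddit3 (-0.9347) and Trib3 (-0.7435), on the log2 scale as tumours minus cells. Over the fits that left out each library in turn, KD tumours replicate 4 included, the Ddit3 difference ran from -1.0074 to -0.8384, with edgeR adjusted p from 0.0020 to 0.014.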

How the results depend on the processing

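Leaving out single libraries moved the counts most. In cells 290 to 1531 genes passed in place of 1111, lowest without WT replicate 1 (290), KD replicate 1 (330) or WT replicate 2 (466), and 1 to 5 of the 10 genes passed. In tumours 1 to 4 of the 10 passed (1 without WT replicate 4 or 5), and for the difference between tumours and cells 1667 to 3359 genes passed in place of 2850 (1667 without KD cells replicate 3, 1855 without WT cells replicate 3). Direction turned only for values near 0: Chac1 in tumours with library totals (-0.0008) and over the left-out tumours (-0.1076 to 0.0904), Ppp1r15a in tumours (-0.004 to 0.187), and Asns in the difference with DESeq2 (0.0007) and over the left-out libraries (-0.0641 to 0.0476). With all 16 libraries in 1 fit, Trib3 passed in cells (0.60, edgeR adjusted p = 0.047) and Slc3a2 in tumours (0.29, edgeR adjusted p = 0.036). Slc7a11 passed in the difference with library totals, DESeq2 or the stricter filter, and Ppp1r15a passed between WT tumours and cells with DESeq2 or the joint fit. In each case the cause was not tested.

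Same-numbered WT and KD libraries deviated with correlations of -0.355 to 0.019 in cells and -0.355 to 0.241 in tumours. For libraries with different numbers the correlations were -0.252 to 0.412 in cells and -0.601 to 0.611 in tumours. With so few libraries, these values cannot decide whether replicate numbers pair them. With the replicate block 508 genes passed in cells, and the 10 genes kept 4 calls in cells and 2 in tumours, losing Sesn2 (edgeR adjusted p = 0.060) and Atf4 (0.068), and Trib3 in the difference (0.080). Chac1 in tumours was then at -0.0048. Cells had fewer and shallower libraries than tumours.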
